A study of Mus musculus with 72 samples.

Results

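The interferon-stimulated effector genes are the genes that interferons switch on and whose products act directly on viruses or on the infected cell. Here they are 46 mouse genes, chosen by name as known interferon targets of 12 roles, out of 36047 mouse genes with a row in the deposited tables. All 46 were found by their Ensembl identifier in each of 6 tissue tables. The study used transgenic mice of the genotype EGFR DEL19, named for a deletion known to keep the growth factor receptor EGFR switched on. The promoter that drives the transgene is not given in the sources used here. Every mouse, controls included, had doxycycline for 25 days and lung tumours seen by micro-CT. Each mouse then received 1 of 3 genetic circuits by vein, designs named for the CMV promoter that drives a small RNA. The control circuit, CMV-scrR, encodes a scrambled RNA. CMV-siRE encodes a small interfering RNA directed at EGFR. CMV-GE11-siRE encodes the same RNA together with GE11, an EGFR-binding peptide. Each dose was 10 mg/kg, given 7 times at intervals of 2 days, and tissues were taken on day 14. There were 72 libraries, 4 per circuit in each of liver, lung, spleen, kidney, thymus and tumour (12 per tissue). No library of a mouse without a circuit was analysed here, so all groups share the injection of a circuit, and no age is given in the sources used here.

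Interferons are secreted signals of infection. Type I interferons (alpha and beta) act through the receptor Ifnar1-Ifnar2, the kinases Jak1 and Tyk2 and transcription factors that bind the interferon-stimulated response element (ISRE) in the promoters of their targets. Interferon gamma has a receptor of its own, and its targets carry the gamma-activated site (GAS). Macrophages and dendritic cells, which liver, lung and spleen hold in number, are known sources of type I interferon. Among the targets, IFIT proteins bind foreign RNA and block its translation, ISG15 is a ubiquitin-like tag, IFITM3 and BST2 act at membranes, and RSAD2 and SAMHD1 act on nucleotides.

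The promoters of 7 of the 16 members that carry the letters GAAANNGAAA, the core of the ISRE, are shown: 6 whose values are described below, and Ddx60 as an example with a match close to the start. They were taken from RefSeq (GRCm38.p6), from windows of 250 bases before to 50 bases after each start. They are written 5′ to 3′ on the gene's strand, and capitals mark each match, on either strand, with flanks of 35 bases on each side or fewer up to the gene's start.
Ifit1 (chr19:34640750-34640848, plus strand): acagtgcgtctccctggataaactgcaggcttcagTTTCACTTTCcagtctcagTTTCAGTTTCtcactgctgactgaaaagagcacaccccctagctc
Ifit3 (chr19:34583338-34583451, plus strand): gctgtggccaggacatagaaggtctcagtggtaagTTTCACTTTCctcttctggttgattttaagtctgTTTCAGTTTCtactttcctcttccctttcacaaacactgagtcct
Ifit3b (chr19:34607734-34607847, plus strand): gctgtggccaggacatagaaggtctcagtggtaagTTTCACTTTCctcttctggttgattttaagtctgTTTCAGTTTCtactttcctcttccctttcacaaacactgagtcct
Isg15 (chr4:156200840-156200931, minus strand): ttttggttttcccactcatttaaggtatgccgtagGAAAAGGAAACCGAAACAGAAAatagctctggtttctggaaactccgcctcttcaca
Rsad2 (chr12:26456528-26456607, minus strand): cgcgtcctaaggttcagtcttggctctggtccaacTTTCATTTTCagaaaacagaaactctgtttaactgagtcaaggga
Bst2 (chr8:71537552-71537637, minus strand): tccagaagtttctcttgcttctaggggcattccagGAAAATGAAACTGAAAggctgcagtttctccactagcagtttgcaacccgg
Ddx60 (chr8:61927999-61928086, plus strand): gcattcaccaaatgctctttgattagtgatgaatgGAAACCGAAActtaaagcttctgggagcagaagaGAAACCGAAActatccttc

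In Isg15 3 matches overlap in a single run of bases, and in Bst2 2 matches overlap. Ifit1 has 2 matches, the nearer ending 76 bases before the start. The 114 bases shown for Ifit3 and Ifit3b are identical, all 114 of them. These paralogs, and the close pairs Trim30a with Trim30d and Slfn8 with Slfn9, can share reads, so their separate values are uncertain. Of the 46 members, 39 had an entry in the promoter table and 7 did not. GAAANNGAAA, searched on both strands of the 300 bases, was in 16 of the 39 (41.0%), against 3.99% of 27025 genes in the table. TTCNNNGAA, the letters of the GAS, which reads the same on both strands and whose last GAA can also open a match of the other motif, was in 8 of the 39 (20.5%), against 9.55% of all genes. Both were in 3 members. Under CMV-siRE the median log2 difference from CMV-scrR in liver was -0.65 over the 16 members with GAAANNGAAA and -0.62 over the 23 without it, in spleen -0.68 and -0.65, and in lung -0.62 and -0.65. Of the 16 members 10 were called lower in at least 1 of 5 comparisons with CMV-scrR (both circuits in liver and spleen, CMV-siRE in lung), and of the 23 without it 18. A match of letters is a description, and no match says only that these letters are not in this window.

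By position on GRCm38, 16 members lie in 6 groups of neighbours no more than 200 kb apart. Ifit2, Ifit3, Ifit3b and Ifit1 span 99.3 kb of chromosome 19 (34550694 to 34650009). Rsad2 and Cmpk2 span 37.1 kb of chromosome 12 (26442746 to 26479837). Parp14, Dtx3l and Parp9 span 140 kb of chromosome 16, where Dtx3l and Parp9 overlap by 682 bp, so without strand-specific counting reads of that stretch cannot be assigned. The other 3 groups are Slfn5 with Slfn9 and Slfn8, Mx1 with Mx2, and Trim30a with Trim30d.

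The values are the authors' normalized expression values, deposited as 1 table per tissue, and they are compared within a tissue. The values of an organ library summed to 16.9 M to 21.4 M (M, mega; 60 libraries) and those of a tumour library to 5.87 M to 43.8 M (12 libraries), and each library had 15523 to 21522 genes above 0. The defining markers of each tissue were present, from the hepatocyte markers in liver (lowest value 33859) to the thymocyte markers in thymus (lowest 385), and alveolar type 2 markers were at 623 or more in tumours. Some libraries stood apart. The mean mitochondrial share of a tumour library was 68.6% under CMV-scrR, 60.1% under CMV-siRE and 20.6% under CMV-GE11-siRE. The Y-linked transcript Ddx3y was at 330.2 to 422 in tumour libraries CMV-scrR 2, CMV-siRE 2, CMV-siRE 4 and CMV-GE11-siRE 2, at 9.59 or less in the other 8 tumours and at 22.9 or less in the 60 organ libraries, so tumour and organ libraries with those numbers differ in it. In kidney and thymus, CMV-GE11-siRE replicate 4 had the steepest relation of all 12 libraries to transcript GC content (Spearman 0.62 across genes in both, genes not being independent). It also had the lowest mitochondrial share, 3.69% in kidney and 0.558% in thymus, where the next lowest library was at 9.60% and 1.64%. The labels do not state that libraries of a group come from different mice, so the p-values rest on the spread among these samples alone, which may be technical.

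In control tissue the members' levels were highest in spleen and lung, both per length and by rank among genes. They were lowest in tumour per length, but in kidney by rank. Counted per kilobase of exon and scaled to a common total (TPM-like, from GENCODE lengths), the median member level under CMV-scrR was 81.4 in spleen, 76.0 in lung, 55.4 in thymus, 27.1 in liver, 25.4 in kidney and 3.17 in tumour, where mitochondrial transcripts take most of the total. As a percentile among genes above 0, the median member was at 92.2 in spleen, 89.8 in lung, 83.9 in liver, 83.6 in thymus, 81.7 in tumour and 78.6 in kidney. Among the 5 organs, tumour left out, 17 members were highest in lung, 15 in spleen, 10 in thymus, 3 in liver and 1 in kidney. The tables were scaled separately, so this order is a description. Ifitm3, which blocks fusion of viral with endosomal membranes, was the highest member in lung (1808 ± 448 TPM-like units, SD, n = 4), liver (1471 ± 259) and tumour (147 ± 155). Shisa5, a membrane protein of the endoplasmic reticulum, was the highest in spleen at 990.4 ± 148. Lgals9, the lectin galectin-9, led in thymus at 419, and Lgals3bp, a secreted glycoprotein that binds galectin, led in kidney at 423 ± 73.4. Isg15 stood at 509 ± 172 in spleen, 163 ± 101 in lung and 156 ± 115 in liver, and the last 2 do not differ beyond their spread. Ifit1 stood between 34.8 and 67.1 in the 5 organs, a range within the SD of 42.1 in lung.

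**Figure D1:**
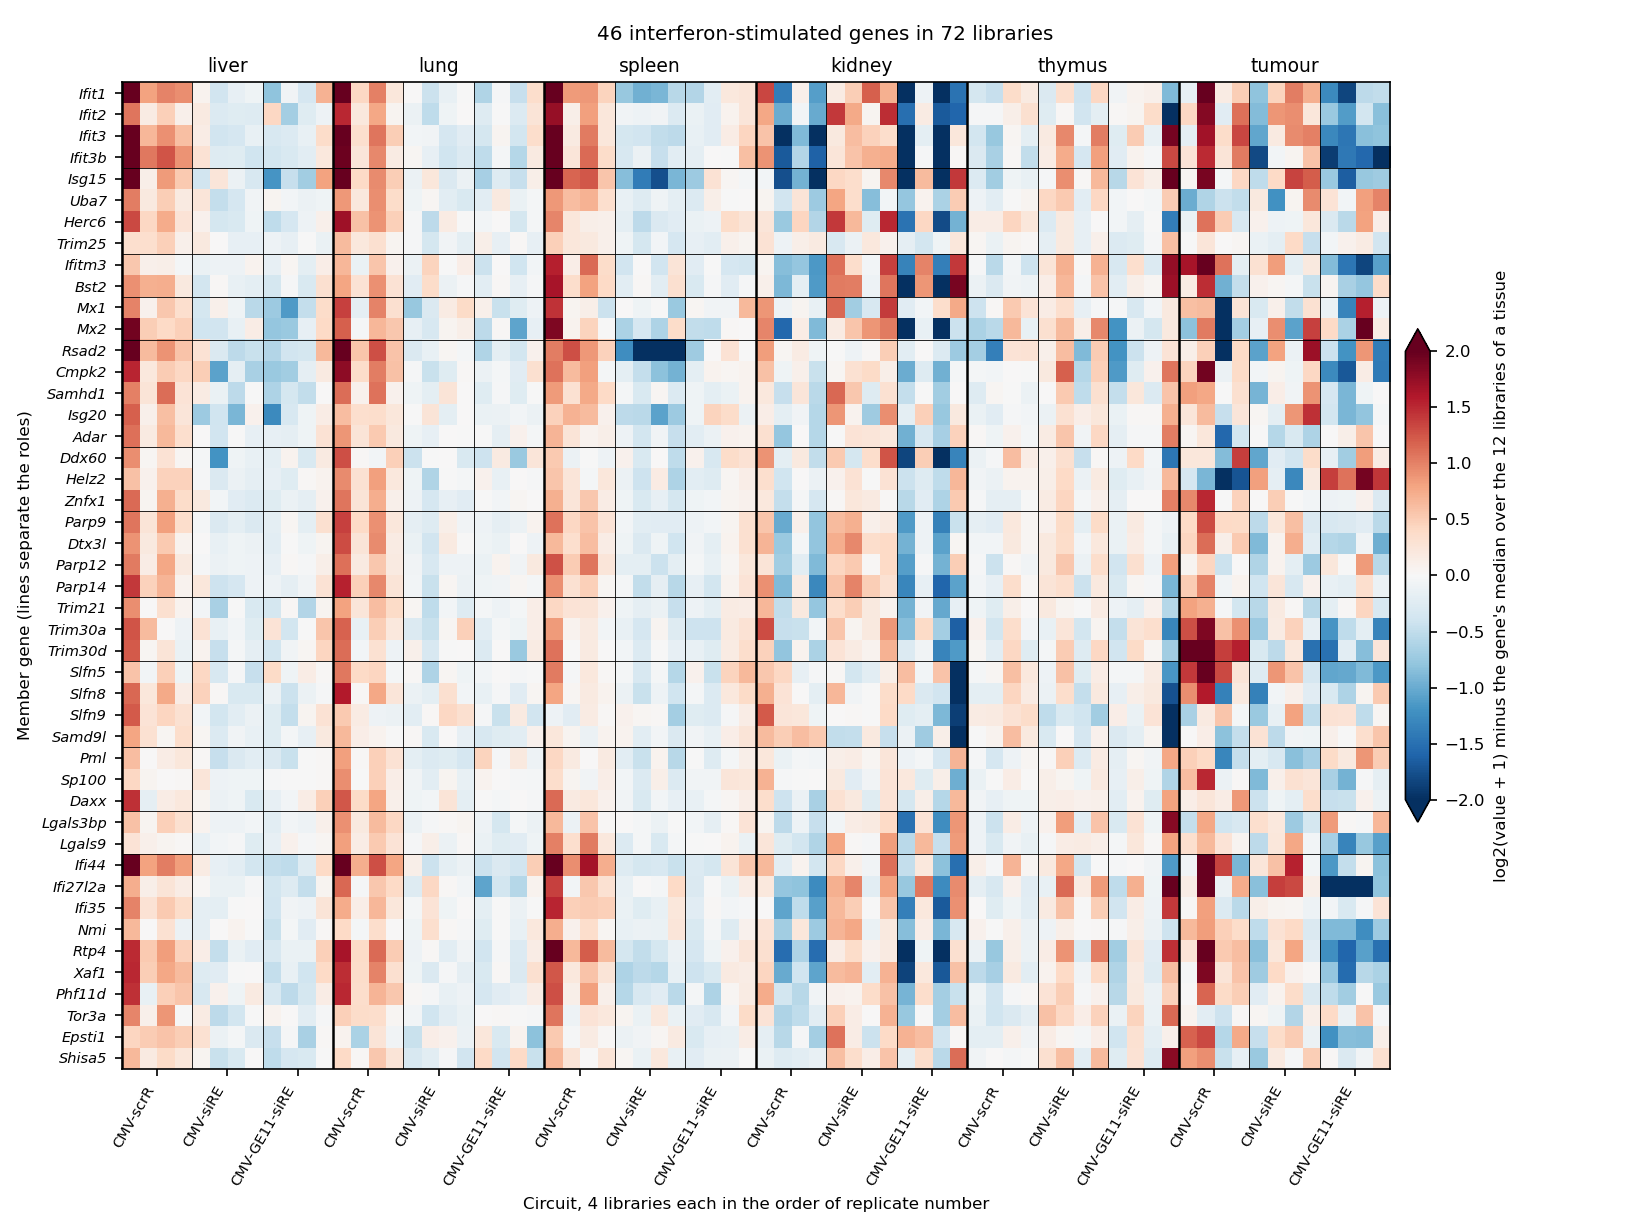
Each cell is the log2(value + 1) of a member in a library minus the member's median over the 12 libraries of the tissue, drawn from -2 to 2, with 46 genes in rows and 72 libraries in columns. The first column of each CMV-scrR block in liver, lung and spleen (replicate 1) is the darkest red, and CMV-GE11-siRE replicates 1 and 3 of kidney are blue.

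In liver, lung and spleen most members were highest in the same control library. The mean log2(value + 1) over the 46 members was taken for each library and set against the median library of its tissue. In liver, lung and spleen the 4 CMV-scrR libraries held ranks 1 to 4. Replicate 1 was 1.25 above the median library in liver, 1.22 in lung and 1.14 in spleen, and replicate 3 was 0.62, 0.73 and 0.56 above it. CMV-scrR replicates 2 and 4 were closer, between 0.23 and 0.35 above it in the 3 organs. The control group therefore spread more than the others: its SD was 0.43, 0.45 and 0.41 in liver, lung and spleen, against 0.13, 0.06 and 0.06 for CMV-siRE. CMV-scrR replicate 1 alone gave the highest value of 43 members in liver, 42 in lung and 41 in spleen. Of all genes tested, it gave the highest value of 11.1% in liver, 6.69% in lung and 16.97% in spleen. The 3 organs are not independent observations, because libraries of the same circuit and number deviated together across them. Over 12 libraries, the deviations of this mean from the circuit mean had Pearson correlations of 0.90 (lung and liver), 0.91 (lung and spleen) and 0.96 (liver and spleen), and Spearman correlations of 0.87, 0.71 and 0.90. Without the 2 libraries farthest from the median the Pearson values were 0.72, 0.76 and 0.87. Kidney had 0.72 with lung, 0.70 with liver and 0.59 with spleen, as the largest of the other 12 pairs of tissues. In kidney the same replicate 1 was 0.50 above the median library, but CMV-siRE replicate 4 was higher (0.58), and CMV-GE11-siRE replicates 1 and 3 were lowest (-0.96 and -1.09). In thymus the library means lay between -0.32 and 0.43 and the groups overlapped, but CMV-GE11-siRE replicate 4 split the members, with 22 at their highest and 16 at their lowest of the 12 libraries. In kidney the same circuit and number had 12 at their highest and 8 at their lowest. Over all genes tested, these libraries held the highest value of 34.0% in thymus and 30.1% in kidney. They therefore stood apart for many genes besides the members. The share of all genes at their lowest there was not counted. In tumour CMV-scrR replicate 2, a library with Ddx3y, was 1.16 above the median library. It gave the highest value of 27 members, and of 16.6% of all genes tested.

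**Figure D2:**
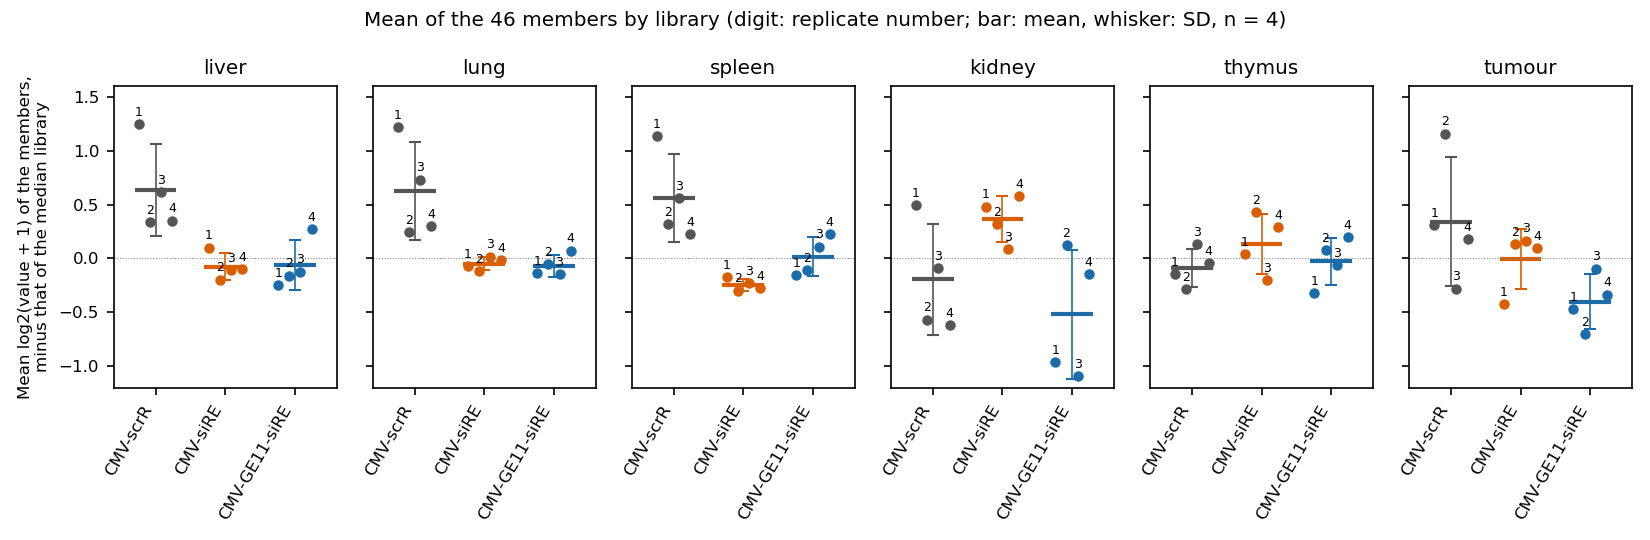
The vertical axis is the mean log2(value + 1) of the 46 members in a library minus that of the median library of its tissue, by circuit, with replicate numbers beside the points, a bar at the mean of 4 and a whisker of 1 SD. In liver, lung and spleen all 4 CMV-scrR libraries lie at 0.23 or more, with replicate 1 at 1.14 to 1.25.

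In liver the members were lower under both EGFR circuits than under the scrambled control. Under CMV-siRE 14 of 46 members fell (30.4%, where 1.97% of the 14484 genes tested fell) and 0 rose, with a median log2 difference of -0.64 against 0.00 over all genes. All 46 differences were below 0. Under CMV-GE11-siRE 17 of 46 fell (37.0%, where 2.04% of genes fell), with a median of -0.63 and again 46 below 0. These calls are limma tests on log2(value + 1) with p adjusted over all genes of the tissue at 0.05, and both comparisons share the same 4 control libraries. In 25 members all 4 CMV-siRE libraries lay below all 4 controls (background 6.59% of genes), and in 19 members all 4 CMV-GE11-siRE libraries did (background 5.68%). In a piece of organ, fewer cells of a type and less RNA per cell cannot be told apart.

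Of the 4 RNA-binding IFIT genes 3 fell in liver under each circuit. Ifit1, which binds foreign RNA that lacks the host's cap methylation, had values of 2479, 617, 707 and 679.8 in CMV-scrR replicates 1 to 4. Under CMV-siRE Ifit1 was at 374, 273, 318 and 333, and under CMV-GE11-siRE at 202, 336, 282 and 574. Every library of either circuit lay below every control, and control replicate 1 lay far above the rest. The Ifit1 difference was -1.52 ± 0.39 (standard error; 2.87-fold lower, adjusted p = 0.0436 by limma) under CMV-siRE and -1.51 ± 0.39 (adjusted p = 0.0446) under CMV-GE11-siRE. Ifit3b showed -1.65 ± 0.33 and -1.66 ± 0.33 and Ifit3 -1.34 ± 0.33 and -1.25 ± 0.33, while Ifit2 was at -0.60 in both with no call. Ifi44, a cytoplasmic protein induced by interferon, stood at 1394, 585, 685 and 602 in controls, at 374, 301, 290.2 and 260.4 under CMV-siRE and at 241, 236, 281 and 442 under CMV-GE11-siRE. Its controls too lay above all 8 other libraries, with differences of -1.32 ± 0.26 (adjusted p = 0.0157 by limma) and -1.39 ± 0.26 (adjusted p = 0.0124).

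Isg15, the ubiquitin-like tag, did not pass in liver. Its values were 1937, 433, 727 and 577 in controls, 307, 475, 371 and 319.6 under CMV-siRE and 177, 291, 246 and 705 under CMV-GE11-siRE, so the groups overlapped (adjusted p = 0.178 and 0.104 by limma). Of the other genes of ISG15 conjugation, Herc6, the mouse ligase, fell under both (-0.85 and -0.90), Trim25, a ubiquitin and ISG15 ligase, fell under CMV-GE11-siRE (-0.42), and Uba7, the activating enzyme, was at -0.64 and -0.52 with no call. Rsad2 (viperin), which makes an altered nucleotide that stops viral RNA synthesis, was at 1682, 518, 621 and 498 in controls, 409, 273, 232 and 245 under CMV-siRE and 222, 256, 263 and 527 under CMV-GE11-siRE. Its adjusted p was 0.0521 and 0.0614, both above the threshold. Samhd1, which breaks down the building blocks of DNA, stood at 3517, 2101, 3796 and 2112 in controls, 1959.7, 1597, 1224 and 1743 under CMV-siRE and 1147, 1366, 1243 and 1761 under CMV-GE11-siRE. It fell under CMV-GE11-siRE (-1.03 ± 0.21, adjusted p = 0.0166 by limma) and was at -0.79 (adjusted p = 0.0512) under CMV-siRE.

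Of the membrane proteins, Bst2 (tetherin), which holds budding virus at the cell surface, was at 6136, 5346, 5391 and 3714 in control livers. It was at 2525, 3311, 2921 and 2853 under CMV-siRE, all below the controls, and at 2561, 3192, 2630.3 and 4072 under CMV-GE11-siRE, where replicate 4 overlapped them. Bst2 fell by 0.81 ± 0.16 and by 0.73 ± 0.16 on the log2 scale (adjusted p = 0.0175 and 0.0273 by limma). Ifitm3 was at 9891, 7324, 7350.2 and 6609 in controls and at 5964 to 7433 in the other 8 libraries, with differences of -0.25 and -0.23 and no call. Shisa5 was at 2496, 1806, 2085 and 1874, then at 1659, 1172, 1287 and 1609 and at 1125, 1263, 1300.0 and 1587. The Shisa5 controls lay above all 8 other libraries, and it fell by 0.53 ± 0.14 and 0.65 ± 0.14 (adjusted p = 0.0491 and 0.0222 by limma). The ADP-ribosylation gene Parp9 fell under both circuits (-0.83 and -0.64), and Parp12 and the RNA-editing enzyme Adar fell under CMV-siRE (-0.63 and -0.71). Rtp4, a receptor transport protein, Xaf1, which binds an inhibitor of apoptosis, Ifi35 and the helicase Helz2 fell under both, by 1.00 and 0.85, by 0.97 and 1.01, by 0.63 and 0.62, and by 0.55 and 0.48. Epsti1, Ifi27l2a and Lgals3bp fell under CMV-GE11-siRE by 0.78, 0.58 and 0.43. No TRIM gene outside ISG15 conjugation, Schlafen gene, PML body gene or Mx gene was called in liver.

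The liver calls depended on which libraries, control or treated, were in the fit. Without CMV-scrR replicates 1 and 3 together, 1 member (Ifit3b) fell under each circuit, with medians of -0.39 and -0.36 and 45 and 43 of 46 members still below 0. Leaving out 1 library at a time, the CMV-siRE count was 6 without CMV-scrR replicate 1, 6 without replicate 3, and 1, 4 and 6 without CMV-siRE replicates 2, 3 and 4. The CMV-GE11-siRE count was 5 and 4 without those controls and 2, 4 and 7 without CMV-GE11-siRE replicates 1, 2 and 3. Some other single omissions raised the counts above those of the full fit. Each omission also leaves fewer libraries to test. The shares of all genes called in these fits are not given here, so the counts describe the calls alone. Macrophage markers, 7 genes, had a summed value of 12092 to 21457 in control livers, 9111 to 18987 under CMV-siRE and 10417 to 12930.3 under CMV-GE11-siRE, and 1 of the 7 (C1qa) fell under each circuit. Of 5 endothelial markers 2 rose under each, where 299 and 317 of the 14484 genes tested rose. None of the macrophage markers was at 0, and their part in the result was not tested. The Spearman correlation of values with transcript GC content across genes was 0.064 to 0.29 in control livers. It was -0.15 to 0.055 under CMV-siRE, without overlap, and -0.26 to 0.10 under CMV-GE11-siRE.

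In lung the differences were of similar size, but 11 of 46 members fell under CMV-siRE (23.9%, where 0.928% of the 16165 genes tested fell) and 0 were called under CMV-GE11-siRE (where 0% of genes were called). The medians were -0.65 and -0.64. Under CMV-siRE 44 of 46 members were below 0 and under CMV-GE11-siRE all 46 were. In each, 39 of 46 were at an unadjusted limma p under 0.05, where 2847 and 1277 of the 16165 genes were. All 4 libraries lay below all 4 controls in 26 members under CMV-siRE (background 7.13%) and in 23 under CMV-GE11-siRE (background 2.48%). The smallest adjusted p of a member under CMV-GE11-siRE was 0.11. Compared directly in lung, CMV-GE11-siRE minus CMV-siRE gave 0 called members (background 0.0619% of genes in either direction). At an unadjusted limma p under 0.05 there was 1 member, where 1612 of the 16165 genes were. The median was -0.01, with 23 members on each side of 0.

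The 11 lung members that fell under CMV-siRE came from 7 of the 12 roles. Ifi44 changed by -1.43 ± 0.29 (2.69-fold lower, adjusted p = 0.0322 by limma), from 2165, 746, 1096 and 779 in controls to 487, 331, 393 and 414. Under CMV-GE11-siRE it stood at 334, 366, 344 and 631, also below every control (-1.42, adjusted p = 0.124). Cmpk2, the mitochondrial nucleotide kinase beside Rsad2, fell by 1.11, Herc6 by 1.01, Rtp4 by 1.01 and Parp14, an ADP-ribosyltransferase, by 0.95. The helicases Helz2 and Znfx1 each fell by 0.75, Uba7 by 0.73, Trim21, a cytosolic antibody receptor and ubiquitin ligase, by 0.70, Pml, the scaffold of nuclear bodies, by 0.66, and Tor3a, an ATPase of the endoplasmic reticulum, by 0.51. None of the 4 IFIT genes passed in lung, although the median of their 4 differences was -1.05 under CMV-siRE and -1.07 under CMV-GE11-siRE. Ifit1 was at 2122, 692, 1044 and 605 in controls, 520.3, 385, 468 and 514 under CMV-siRE and 342, 509, 377 and 660.4 under CMV-GE11-siRE. CMV-scrR replicate 1 was again the highest, and replicate 4 was close to the treated libraries (adjusted p = 0.103 and 0.321 by limma).

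Isg15 in lung was at 1474, 459, 667 and 491 in controls, 321, 405, 285 and 320.4 under CMV-siRE and 217, 289.9, 253 and 375 under CMV-GE11-siRE. No library of either circuit reached a control, but the adjusted p was 0.0878 and 0.159 by limma, for differences of -1.05 ± 0.30 and -1.30 ± 0.30. Rsad2 was at 2043, 573, 957 and 582, then at 319, 354, 400.3 and 382, and at 259, 342, 304 and 417. The controls lay above all 8 other libraries, and the differences were -1.31 ± 0.31 (adjusted p = 0.0521 by limma) and -1.46 ± 0.31 (95% interval -2.14 to -0.79, adjusted p = 0.124). Bst2 was at 4004, 2839, 4389 and 2848 in controls, 1984, 2991, 2141 and 2293 under CMV-siRE, where replicate 2 overlapped them, and 2010.2, 2358, 2071 and 2296 under CMV-GE11-siRE. Trim25 was at 4408, 3291, 3577 and 2971, then at 2817, 2239, 2715 and 2501, and at 3091, 2537, 2895 and 2539.9. Trim25 had differences of -0.46 (adjusted p = 0.0664 by limma) and -0.35 (adjusted p = 0.417). Ifitm3, the highest member of lung, was at 9715, 5576, 8956 and 6486 in controls, 5651, 8359, 6106 and 6712 under CMV-siRE and 4549, 6119.9, 4627 and 5898 under CMV-GE11-siRE, and its groups overlapped.

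Each of several libraries decided the lung calls. The CMV-siRE count was 1 without CMV-scrR replicate 1, 17 without replicate 2, 0 without replicate 3, and 2, 0, 1 and 0 without CMV-siRE replicates 1 to 4. Without CMV-scrR replicates 1 and 3 together 0 members were called and the medians were -0.33 and -0.28, with 41 and 45 of 46 below 0. For these omissions the share of all genes called is not given here, so the counts describe the calls alone. Other cell markers also differed in lung: 4 of 7 macrophage markers rose and 3 of 4 erythroid markers fell under CMV-siRE. Of the 16165 genes tested there 78 rose and 150 fell. The summed erythroid value was 28018 to 41423 in controls, 8783 to 15228 under CMV-siRE and 24482 to 34749.6 under CMV-GE11-siRE, while the summed macrophage value was 11063 to 16561, 14957 to 17376 and 10579 to 12164.5. The part of these cells in the result was not tested. Across genes, the Spearman correlation of values with transcript GC content was 0.019 to 0.26 in control lungs. It was -0.27 to 0.074 under CMV-siRE and -0.31 to 0.27 under CMV-GE11-siRE, both overlapping the controls.

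Spleen held the widest member differences of the 5 organs under CMV-siRE. There 21 of 46 members fell (45.7%, where 2.88% of the 16015 genes tested fell), with a median of -0.66 and all 46 below 0. Under CMV-GE11-siRE 12 fell (26.1%, where 3.47% of genes fell), with a median of -0.43 and 45 below 0. Non-overlap of all 4 libraries below all 4 controls was seen in 30 members under CMV-siRE (background 7.06%) and in 15 under CMV-GE11-siRE (background 7.37%). All 5 enzymes of nucleotides and nucleic acids and all 4 ADP-ribosylation genes fell under CMV-siRE, as did 3 of 4 genes of ISG15 conjugation.

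**Figure D3:**
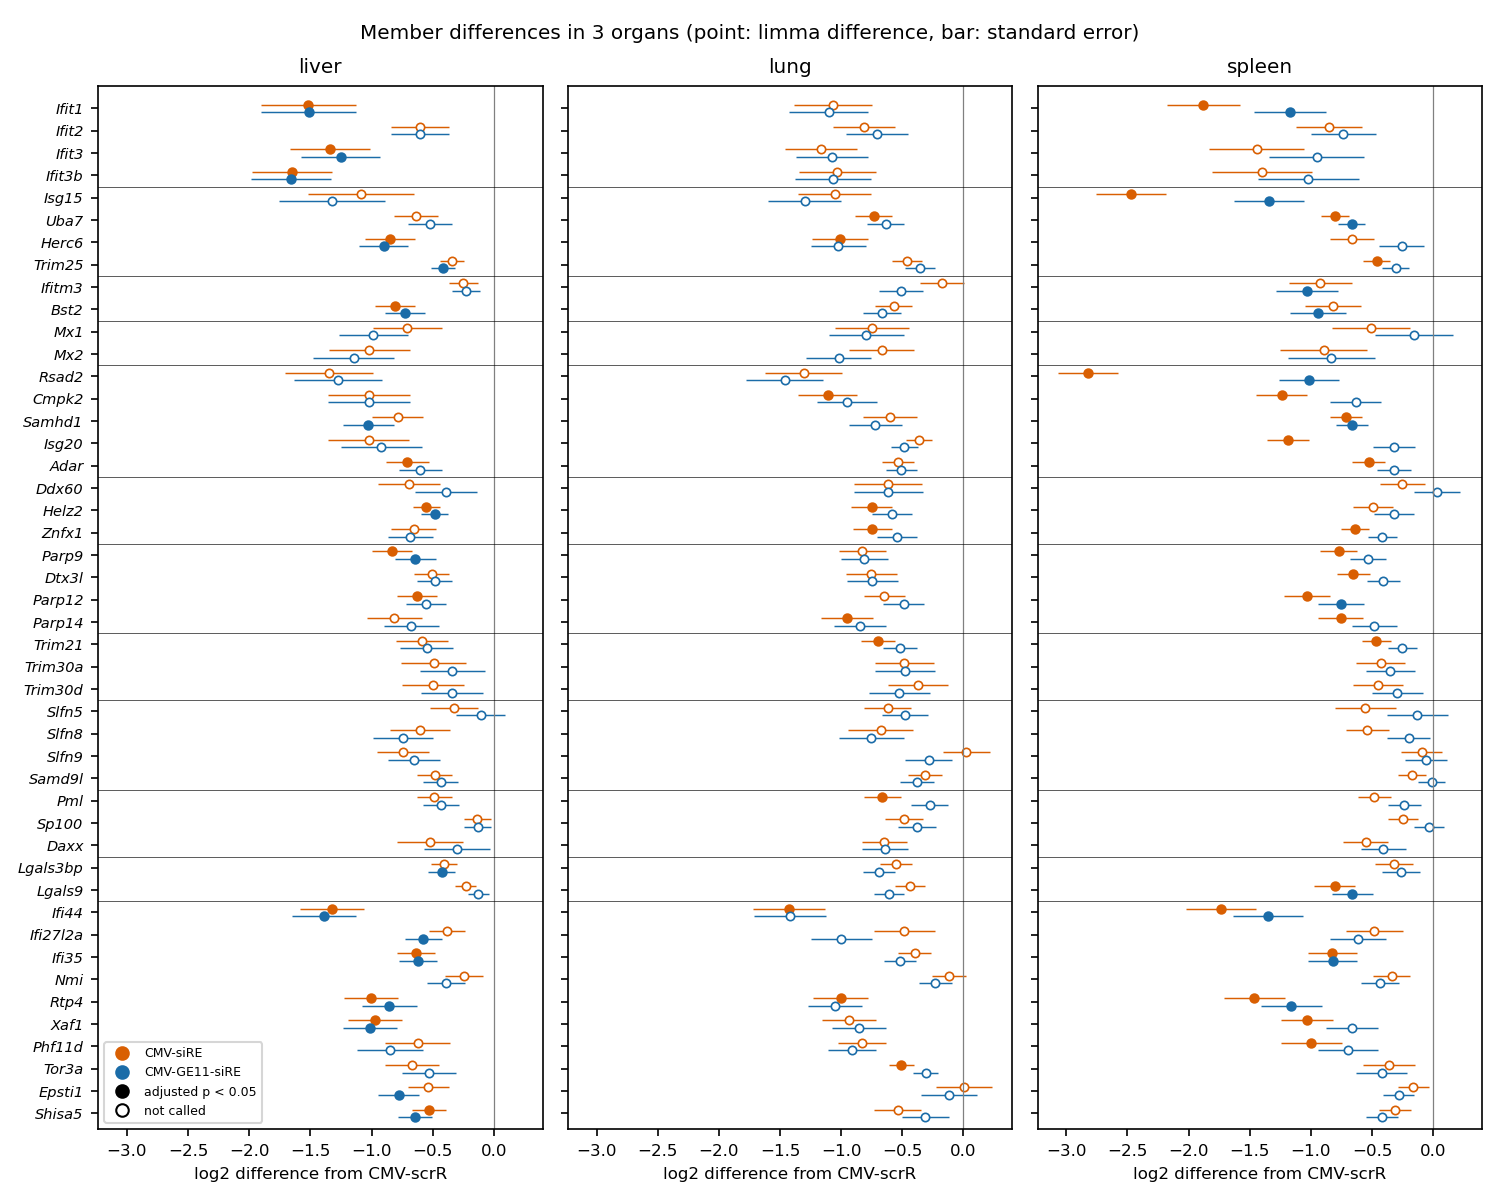
Each point is the log2 difference of a member from CMV-scrR in liver, lung or spleen (bar: standard error), with filled points at an adjusted p under 0.05 and open points above it. Apart from 2 members of lung under CMV-siRE and 1 of spleen under CMV-GE11-siRE, all points lie left of 0, and Rsad2 of spleen under CMV-siRE lies farthest left at -2.82.

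Rsad2 showed the widest gap of the spleen. It was at 5943, 7166, 5368 and 4047 in controls, at 1234, 739, 569 and 707 under CMV-siRE and at 1802, 2966, 3582 and 2908 under CMV-GE11-siRE. The 3 groups did not overlap, with CMV-GE11-siRE between the others, and here control replicate 2, not 1, was highest. Rsad2 was 7.08-fold lower under CMV-siRE (-2.82 ± 0.25, adjusted p = 0.000129 by limma), 2.02-fold lower under CMV-GE11-siRE (-1.01 ± 0.25, adjusted p = 0.0341) and 3.51-fold higher under CMV-GE11-siRE than under CMV-siRE (1.81 ± 0.25, adjusted p = 0.00925). Isg15 was at 4548, 2573, 2715 and 1684 in controls, 634, 434, 339.8 and 607 under CMV-siRE and 697, 1404, 1179 and 1117 under CMV-GE11-siRE. These 3 groups did not overlap either. Isg15 was 5.53-fold lower under CMV-siRE (-2.47 ± 0.29, adjusted p = 0.000432 by limma) and 2.54-fold lower under CMV-GE11-siRE (-1.34 ± 0.29, adjusted p = 0.0222), and the difference of 1.13 between the circuits had an adjusted p of 0.211.

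Ifit1 in spleen was at 1754, 711, 716 and 532 in controls, 230.5, 200.4, 208 and 266 under CMV-siRE and 259, 337, 455 and 462 under CMV-GE11-siRE. All treated libraries lay below the controls, and Ifit1 fell by 1.88 ± 0.30 and 1.17 ± 0.30 (adjusted p = 0.00344 and 0.0388 by limma). Ifi44 was at 1303, 522, 871 and 453, then at 227, 215, 219 and 201, and at 226, 214, 328 and 397. Its control values again did not overlap the others, and it fell by 1.74 ± 0.29 and 1.35 ± 0.29 (adjusted p = 0.00427 and 0.022 by limma). Of the other IFIT genes, Ifit3, Ifit3b and Ifit2 stood at -1.44, -1.40 and -0.85 under CMV-siRE with no call. Rtp4 fell under both circuits (-1.46 and -1.16), as did Parp12 (-1.03 and -0.75), Ifi35 (-0.82 in each), Uba7 (-0.80 and -0.67), Samhd1 (-0.72 and -0.66) and Lgals9 (-0.81 and -0.66). Under CMV-siRE Cmpk2 (-1.24), the exonuclease Isg20 (-1.19) and Xaf1 (-1.03) also fell, Phf11d fell by 1.00, and the 7 further calls lay between -0.46 and -0.77.

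Membrane proteins of the spleen were called under CMV-GE11-siRE and not under CMV-siRE, with differences of about the same size. Bst2 was at 4846, 1989, 2707 and 2049 in controls, 1346, 1570.3, 1341 and 1933 under CMV-siRE and 1254, 1528, 1325 and 1532 under CMV-GE11-siRE (-0.82, adjusted p = 0.0572, and -0.94, adjusted p = 0.0329, by limma). Ifitm3 was at 6270.4, 2336, 4698 and 2751, then at 1636, 2149.9, 1641 and 2539.7, and at 1826, 2121, 1692 and 1659 (-0.92, adjusted p = 0.057, and -1.03, adjusted p = 0.0356, by limma). In both genes control replicates 1 and 3 were highest and replicates 2 and 4 lay near the treated libraries. Mx1, a dynamin-like GTPase that traps viral nucleocapsids and is defective in many laboratory strains, was at 1916, 734, 766 and 523 in controls, 712, 660.5, 697 and 422 under CMV-siRE and 722, 671, 674 and 1107 under CMV-GE11-siRE, with no call. Shisa5, the highest member of spleen per length, was at 30643, 23102, 19310.4 and 23156, then at 19769, 17509, 22341 and 17320.2, and at 16499, 17560.5, 17829 and 19259, with differences of -0.31 and -0.42 and no call.

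Between the EGFR circuits 1 member of spleen was called, Rsad2, higher under CMV-GE11-siRE (2.17% of members, where 0.112% of genes were called in either direction). The median of the 46 differences was 0.21, and 39 were above 0. An unadjusted limma p under 0.05 was found in 6, and in 1568 of the 16015 genes tested. Without CMV-GE11-siRE replicate 3 the Rsad2 call was lost.

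Without CMV-scrR replicates 1 and 3 together 8 members fell: Ifi44, Ifit1, Isg15, Isg20, Parp12, Rsad2, Rtp4 and Uba7. The medians were then -0.43 under CMV-siRE and -0.22 under CMV-GE11-siRE, with 44 and 39 of 46 members below 0. The same omission left 0 calls under CMV-GE11-siRE, where 1 library at a time took the count to 6 and 7 without CMV-scrR replicates 1 and 3 and to 2, 1 and 7 without CMV-GE11-siRE replicates 1, 3 and 4. How many of all genes were called in these fits is not given here, so the counts describe the calls alone. Beside the members, 3 of 4 erythroid markers fell in spleen under CMV-siRE (summed value 336950 to 468917 in controls, 47993 to 131614 under CMV-siRE, 216466 to 424406 under CMV-GE11-siRE). Under CMV-GE11-siRE 3 of 4 natural killer cell markers fell (2544 to 3348 in controls, 936 to 1746 under CMV-GE11-siRE) and 2 of 5 neutrophil markers fell. Of the 16015 genes tested in spleen 277 rose under CMV-siRE and 367 under CMV-GE11-siRE. Of 4 spleen markers 2 (Spic and Vcam1) rose under both circuits, and 1 of 7 macrophage markers (Adgre1) rose under CMV-siRE. Their part in the result was not tested. Spleen libraries also differed in the Spearman correlation of values with transcript GC content across genes. It was 0.19 to 0.36 in controls, -0.14 to -0.05 under CMV-siRE and -0.30 to -0.002 under CMV-GE11-siRE. Controls overlapped neither circuit, so this trend and the circuit cannot be told apart in spleen.

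**Figure D4:**
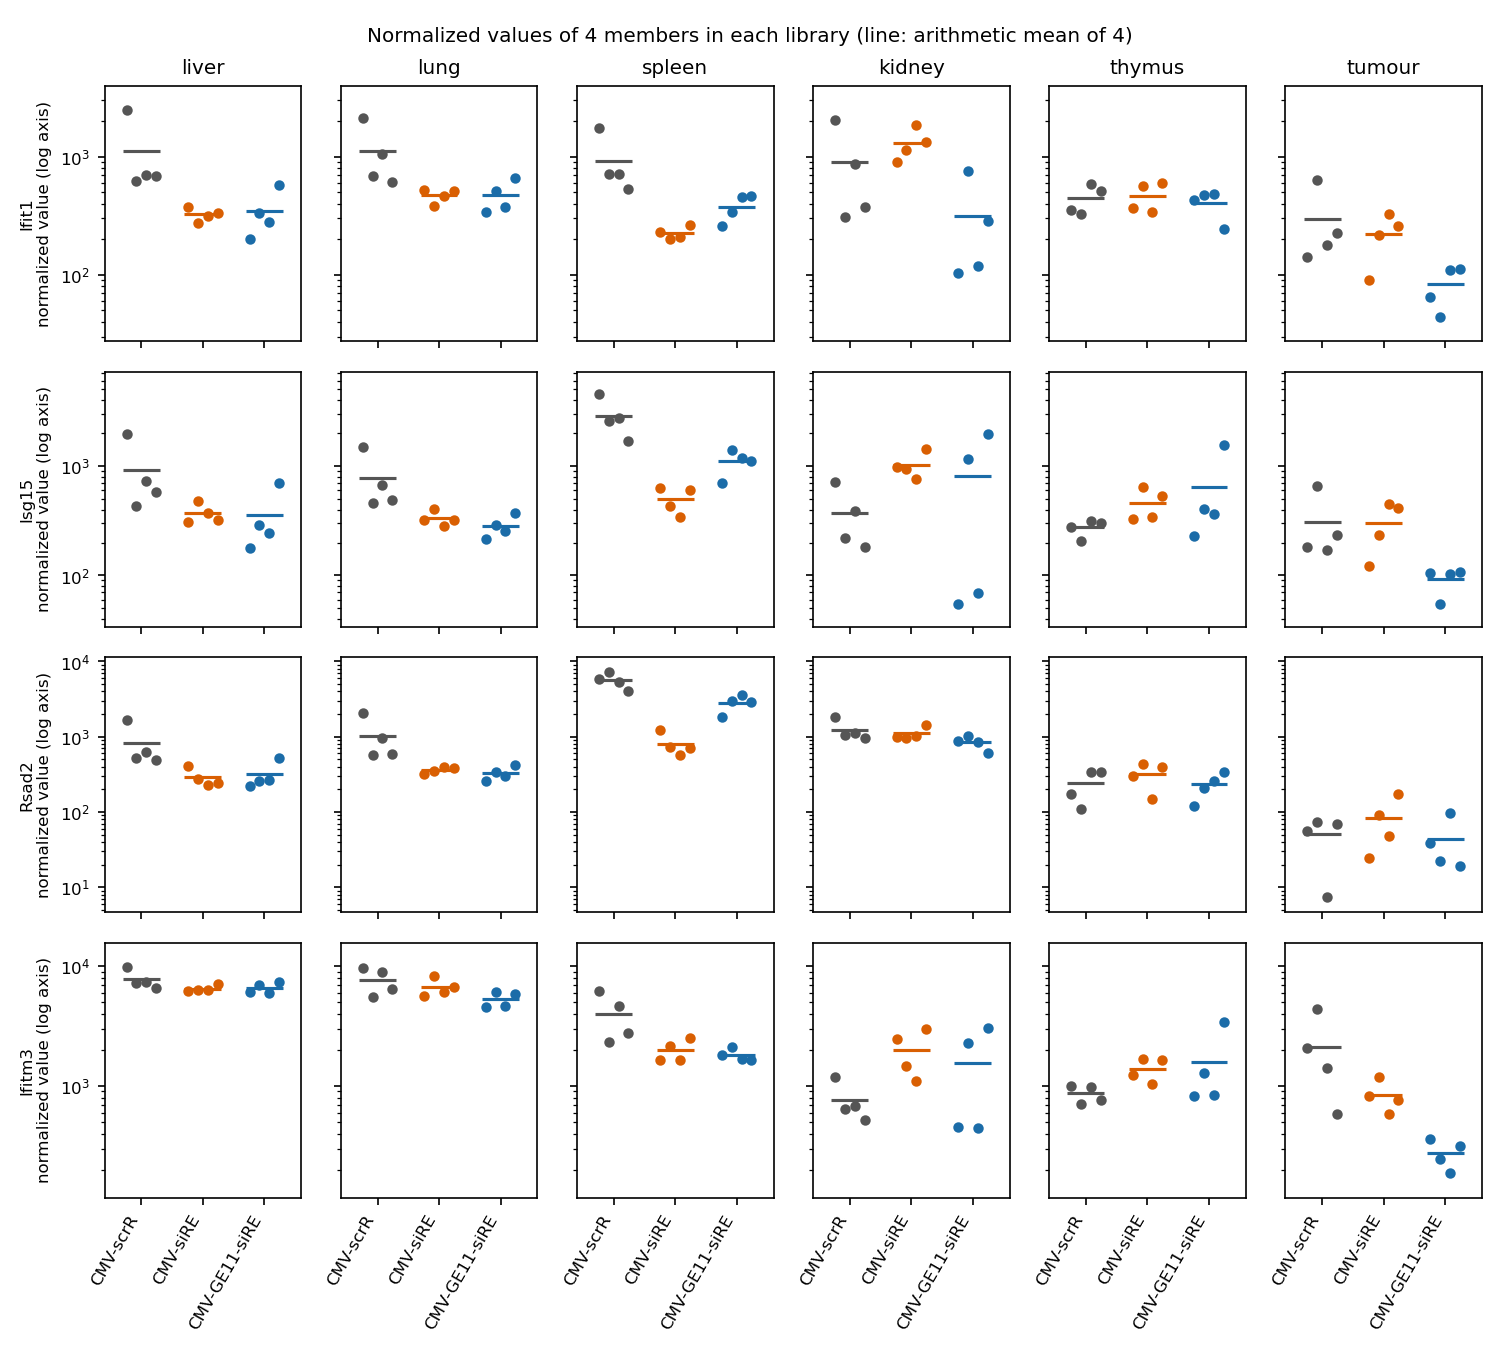
Normalized values (log axes) of Ifit1, Isg15, Rsad2 and Ifitm3 are shown in each of the 72 libraries by tissue and circuit, with a line at the mean of 4. Spleen Rsad2 separates the 3 circuits without overlap, and kidney Isg15 under CMV-GE11-siRE runs from 54.4 to 1964.

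The comparisons with CMV-scrR share their controls within an organ. Side by side, Ifi44 was at -1.32 and -1.39 in liver, -1.43 and -1.42 in lung and -1.74 and -1.35 in spleen. In liver the 2 EGFR circuits were nearly level: CMV-GE11-siRE minus CMV-siRE called 0 members (background 0.0069% of genes). At an unadjusted limma p under 0.05 there were 0 members, where 1110 of the 14484 genes were. The median was 0.02, and all 46 differences lay within 0.5 of 0. The 3 widest were Ddx60 at 0.30 (95% interval -0.24 to 0.85), Mx1 at -0.28 (-0.88 to 0.33) and Epsti1 at -0.24 (-0.61 to 0.12), intervals that leave room for differences of up to 0.88. In lung the widest were Ifi27l2a at -0.52 (-1.05 to 0.02), Pml at 0.39 (0.06 to 0.71, adjusted p = 0.442 by limma) and Mx2 at -0.35 (-0.92 to 0.22).

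Other genes of the interferon pathway were counted from a list of 46, of which 25 or 26 were tested in a tissue. Of them 8 fell in liver under CMV-siRE and 10 under CMV-GE11-siRE, 9 fell in lung under CMV-siRE and 0 under CMV-GE11-siRE, and 11 and 9 fell in spleen. In liver 1 rose under each circuit, the chemokine Cxcl9. Over all genes tested 1.97% and 2.04% fell in liver, 0.928% and 0% in lung, and 2.88% and 3.47% in spleen. In tumour under CMV-GE11-siRE 7 of 25 fell and 5 rose in the deposited scaling, where 19.8% of all genes fell and 22.1% rose. In kidney and thymus 0 were called. Among the 9 kinases and transcription factors 4 fell in liver under each circuit, 4 in lung under CMV-siRE, and 5 and 4 in spleen. Of the 7 targets of interferon gamma 2 and 3 fell in liver, 5 in lung under CMV-siRE and 4 and 4 in spleen. Of 6 receptor genes 1, Ifnar2, fell in liver under both circuits and 0 were called in lung and spleen. Of the 21 interferon genes none passed the filter for testing in tumour, liver or kidney, and 1 passed in each of lung, spleen and thymus. Ifnb1 was listed at 0 in every library of tumour, liver and spleen and reached at most 1.05 elsewhere. Ifng reached 55.5 in spleen and 52.6 in lung.

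Kidney differed from liver, lung and spleen in its pattern, and 0 members were called in any of its comparisons (0% of the 15105 genes tested were called in any). Under CMV-siRE 40 of 46 members lay above the control mean, with a median of 0.55 and 6 at an unadjusted limma p under 0.05. Under CMV-GE11-siRE 34 lay below it, with a median of -0.28 and 6 such members. CMV-GE11-siRE minus CMV-siRE had a median of -0.77 with all 46 below 0 and 21 at an unadjusted p under 0.05. The smallest adjusted p of a member there was 0.999 by limma. Over all 15105 genes 1486, 1218 and 599 were at an unadjusted limma p under 0.05 in these comparisons, in the same order. The 4 CMV-siRE libraries lay above all 4 controls in 2 members, Isg15 and Shisa5, against a background of 8.27% of genes. With only the 8 libraries compared in the fit, 5 members rose (Bst2, Ifi35, Ifitm3, Isg15 and Shisa5) and Samd9l fell under CMV-siRE, where 3.21% of genes rose and 4.36% fell.

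Isg15 in kidney was at 711, 218, 384 and 184 in controls, 982, 939, 765 and 1433 under CMV-siRE and 54.4, 1148, 69.8 and 1964 under CMV-GE11-siRE. The last group split into replicates 1 and 3 below every control and replicates 2 and 4 above them. Its difference under CMV-siRE was 1.63 (95% interval -0.52 to 3.77, adjusted p = 0.588 by limma). Bst2 was at 2153, 1072, 1757 and 909, then at 4113, 4055, 1863 and 4222, and at 460.0, 3688, 466 and 7476, with the same split. Ifitm3 was at 1199, 639, 676 and 519, then at 2487, 1477, 1109.7 and 2969, and at 454, 2299, 446 and 3078, and split likewise. Its difference under CMV-siRE was 1.37 (0.07 to 2.67, adjusted p = 0.504). Ifit1 was at 2041, 310.0, 863 and 376 in controls, 905, 1139.9, 1855 and 1323 under CMV-siRE and 103, 754, 118 and 288 under CMV-GE11-siRE, where all lay below the CMV-siRE libraries (-2.47, 95% interval -3.89 to -1.05, adjusted p = 0.999). Rsad2 stood between 616 and 1813 in all 12 kidney libraries, with a difference of -0.13 ± 0.22 under CMV-siRE.

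The remaining kidney members named for size were Ifit3 (1.56 under CMV-siRE, and -2.11 between the circuits), Mx2 (-2.08 between the circuits), and Samd9l and Ddx60 (-1.50 and -1.31 under CMV-GE11-siRE), none called. Kidney libraries also differed in how values ran with transcript GC content: the Spearman correlation across genes was -0.30 to -0.16 in the 4 controls, 0.07 to 0.21 under CMV-siRE and -0.32 to 0.62 under CMV-GE11-siRE. With that trend removed from each library, an alternative chosen after seeing the data, the 3 medians were 0.57, -0.23 and -0.76. Without CMV-GE11-siRE replicate 4 the medians against the control and against CMV-siRE were -0.37 and -0.84, with 0 calls.

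In thymus 0 members were called. With only the 8 libraries compared in the fit, 3 members rose (Ifit3, Ifitm3 and Tor3a) and Slfn9 fell under CMV-siRE, where 2.87% of genes rose and 7.71% fell. The medians were 0.21 under CMV-siRE (34 of 46 above 0, where 0.00609% of the 16421 genes tested were called), 0.05 under CMV-GE11-siRE (27 above 0) and -0.15 between the circuits (36 below 0), with 0% of genes called in the last 2. At an unadjusted limma p under 0.05 there were 1, 4 and 1 members, where 927, 1550 and 461 of the 16421 genes were. Isg15 was at 278, 207, 316 and 302 in controls, 328, 639, 343 and 527 under CMV-siRE and 227, 404, 362 and 1554 under CMV-GE11-siRE. All 4 CMV-siRE libraries exceeded the controls, by 0.69 ± 0.47 (adjusted p = 0.699 by limma), and CMV-GE11-siRE replicate 4 stood far above its group. Bst2 was at 1004, 899, 1046 and 1025, then at 1202, 1732, 1060.3 and 1627, and at 942, 1184, 1130.4 and 3572, with the same replicate 4 on top. Ifit1 ran the other way in that library: it was at 353, 327, 583 and 509 in controls, 369, 570.3, 338 and 599 under CMV-siRE and 429, 471, 481 and 244 under CMV-GE11-siRE. The members with the widest differences were Ifit3 (0.86 and 0.83 under the 2 EGFR circuits), Slfn9 (-0.72 and -0.95), Ifit3b (0.70 under CMV-siRE) and Samd9l (-0.91 under CMV-GE11-siRE), and between the circuits Mx2 (-0.88), Samd9l (-0.55) and Ifi44 (-0.46), none called. Without CMV-GE11-siRE replicate 4 the median under CMV-GE11-siRE was -0.01. The Spearman correlation of values with transcript GC content across genes was -0.45 to -0.12 in thymus controls. It was 0.09 to 0.35 under CMV-siRE, without overlap, and -0.32 to 0.62 under CMV-GE11-siRE.

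In tumour 45 of 46 members were tested, Trim30d being below the filter. Under CMV-siRE 0 of 45 were called (background 0.256% of the 14044 genes tested), with a median of -0.47 and 34 below 0. At an unadjusted limma p under 0.05 there were 9 of the 45, near the share over all genes (3004 of 14044). Under CMV-GE11-siRE 20 fell and 2 rose in the values as deposited, 44.4% and 4.44% of the members, where 19.8% of genes fell and 22.1% rose. The median was -0.69, and 17 members had all 4 CMV-GE11-siRE libraries below all 4 controls (background 21.5%). Between the EGFR circuits 0 were called (background 0.0214%), with a median of -0.34. At an unadjusted limma p under 0.05 there were 15, where 3677 of the 14044 genes were. The named members of the comparisons without calls were Helz2 (1.28), Trim30a (-1.23, adjusted p = 0.0847 by limma) and Mx2 (1.13) under CMV-siRE, and Ifi27l2a (-2.73), Ifitm3 (-1.59) and Isg15 (-1.58) between the circuits.

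All 4 IFIT genes fell in tumour under CMV-GE11-siRE in the deposited scaling, and 3 of them were above 0 when libraries were scaled to a common column total. Ifi27l2a, a small mitochondrial membrane protein, had the widest difference: 242, 2442, 200.2 and 365 in controls, 121, 567, 548 and 237 under CMV-siRE and 35.9, 28.8, 33.2 and 125 under CMV-GE11-siRE. Control replicate 2 was far above the rest, and all CMV-GE11-siRE libraries lay below the controls (-3.29 ± 0.74, 9.80-fold lower, adjusted p = 0.0037 by limma). Ifitm3 was at 2083, 4429, 1420.2 and 583 in controls, 819, 1185, 580.0 and 758 under CMV-siRE and 363, 244, 186 and 312 under CMV-GE11-siRE. It fell by 2.63 ± 0.47 (6.19-fold lower, adjusted p = 0.0011), and the 4 CMV-siRE libraries lay within or below the control range. Isg15 was at 181, 657, 171 and 235, then at 123, 233, 452 and 409, and at 105, 55.4, 103 and 108 (-1.54 ± 0.47, adjusted p = 0.0176 by limma). Ifit1 was at 143, 639, 178 and 225, then at 90.4, 217, 324 and 261, and at 65.1, 43.8, 110.5 and 113 (-1.66 ± 0.49, adjusted p = 0.0164). In both genes the CMV-siRE libraries overlapped the controls and the CMV-GE11-siRE libraries did not. Rsad2, at 7.42 to 73.1 in controls, 24.3 to 172 under CMV-siRE and 19.1 to 97.2 under CMV-GE11-siRE, was not called.

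Further members that fell in tumour under CMV-GE11-siRE were Ifit3b (-2.56), Slfn5 (-2.27), Rtp4 (-2.26), Trim30a (-1.96), Ifit3 (-1.89), Cmpk2 (-1.71) and Ifit2 (-1.55), and the 9 others lay between -0.83 and -1.54. Helz2 (2.86 ± 0.48) and Uba7 (1.14 ± 0.38) rose. These directions depended on the scaling. Scaled to a common column total, 29 members were higher and 0 lower under CMV-GE11-siRE, with a median of 1.39, while the median of all genes moved to 2.13. Scaled to a common total without mitochondrial genes, 8 were higher and 8 lower, with a median of 0.07, while the median of all genes was 0.81. The shares of all genes called under these scalings are not given here, so the counts are no result about the members. Relative to the median of all genes, the member median was -0.75, -0.74 and -0.75 under the deposited scaling, the column total and the total without mitochondrial genes, and 35 of 45 members lay below the median of all genes in each. A factor per library shifts all genes nearly alike, so this agreement follows from how the values are built. For CMV-siRE it was -0.47, -0.47 and -0.48.

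**Figure D5:**
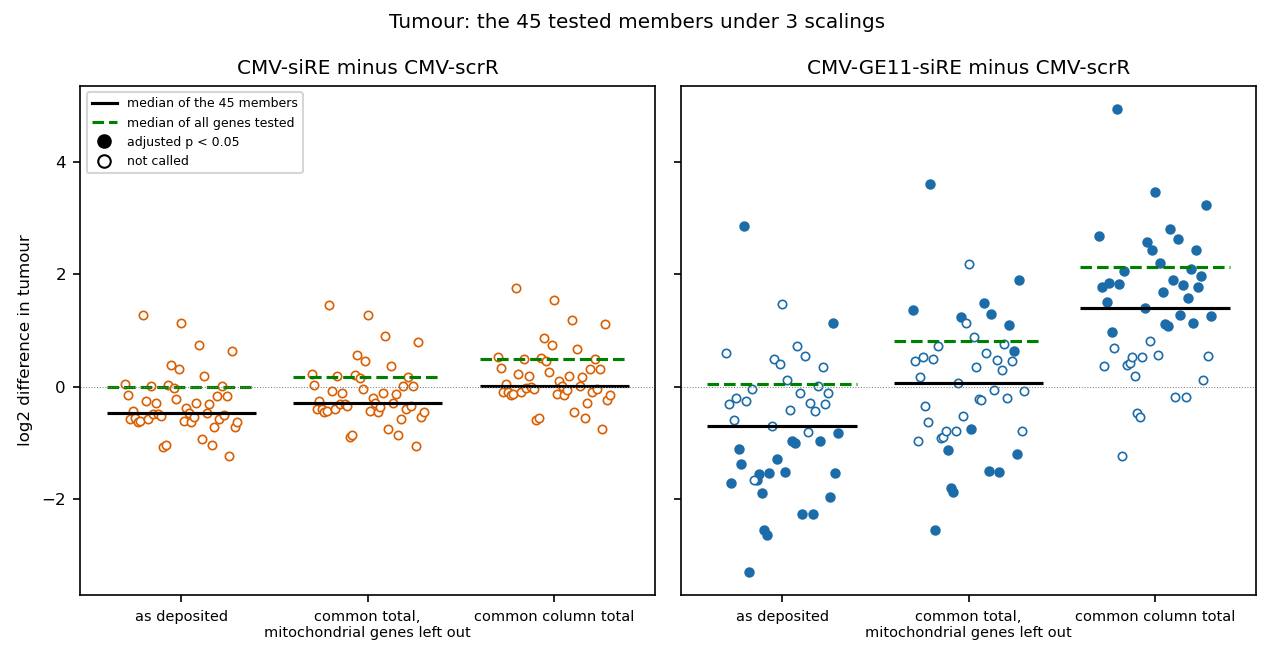
Each point is a member's log2 difference from CMV-scrR in tumour under 3 scalings (filled: adjusted p under 0.05), with the median of the 45 members (black) and of all genes tested (green, dashed). Under CMV-GE11-siRE both medians rise together from left to right, from -0.69 and 0.05 to 1.39 and 2.13.

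Without the 4 tumour libraries that carry Ddx3y, 9 members fell and 3 rose under CMV-GE11-siRE, with a median of -0.46. Ifit1 (-0.93) and Isg15 (-0.87) were no longer called. The share of all genes called in that fit is not given here. Cell markers moved with the circuit as well. Under CMV-GE11-siRE 4 of 7 macrophage markers fell (summed value 1470.0 to 3609 in controls and 1089 to 1514 under CMV-GE11-siRE), 2 of 5 endothelial and all 3 tested hepatocyte markers fell, and 5 of 5 alveolar type 2 markers rose, in the deposited scaling. The part of these cells in the result was not tested. The mitochondrial share was 63.1% to 71.4% in control tumours and 8.04% to 37.9% under CMV-GE11-siRE, so share and circuit cannot be told apart. With the share as a covariate 0 members were called, and the median was -0.86. Across genes, the Spearman correlation of values with transcript GC content was -0.17 to -0.08 in control tumours and -0.12 to 0.20 under CMV-siRE. Under CMV-GE11-siRE it was 0.097 to 0.21, without overlap with the controls, so this trend and that circuit cannot be told apart either.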

How the data were processed

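RNA was measured in 72 libraries (TRIzol total RNA, TruSeq, per the labels' protocols). The deposited values are signal: fractional expression values per gene, normalized by the authors in a way the sources used here do not state, in 1 table per tissue. The submitters' processing notes name DESeq2. No aligner, counter, strand setting or annotation is given in the sources used here. Between 50.3% and 72.6% of low values were whole multiples of a library's step (tolerance 0.1), so reads were not recovered and no count model was used. Identifiers were matched to GENCODE M21 (35968 of 36048 in the tumour table, 46 of 46 members).

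In each tissue, genes at 10 or more in at least 4 of its 12 libraries entered a test with limma 3.58.1 (R 4.3.3) on log2(value + 1), all 12 libraries in 1 fit, with Benjamini-Hochberg adjustment over all genes tested and a threshold of 0.05. Fold changes are on that scale and understate the change of low genes. A ± after a difference is its standard error, and after a level the SD of 4 libraries. The script was tested on simulated data. Called members are named by size, up to 12 per comparison, and others called are named by role. Where none was called, the 3 with the widest difference are named. The members and lists were chosen with earlier results of these data known. The alternatives were other scalings, filters, pseudocounts and fits, and omission of libraries. Within a tissue, same-numbered libraries of different circuits did not regularly deviate together over genes (correlations -0.28 to 0.27). The main fit therefore has no pairing, though a pairing is not excluded. Libraries of the same circuit and number did deviate together across liver, lung and spleen. Tables used Python 3.11.15 and figures matplotlib 3.10.9.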

Additional observations from a re-analysis of the deposited data

Results flagged for a closer look

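Of 126 groups of 4 libraries tested for a library far from the others (Dixon's test at the 95% level), 10 had one, where chance gives about 1 in 20. These were the member mean of tumour CMV-siRE replicate 1 (7.19, log2), Ifit1 in liver CMV-scrR replicate 1 (2479), Ifi44 in lung CMV-GE11-siRE replicate 4 (631), Mx1 in spleen CMV-siRE replicate 4 (422) and CMV-GE11-siRE replicate 4 (1107), and Bst2 in kidney CMV-siRE replicate 3 (1863). The others were Ifit1 in thymus CMV-GE11-siRE replicate 4 (244), Isg15 in tumour CMV-GE11-siRE replicate 2 (55.4), Ifi27l2a in tumour CMV-GE11-siRE replicate 4 (125) and Rsad2 in tumour CMV-scrR replicate 3 (7.42).

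Some members lay wholly above the compared group in 1 tissue and wholly below it in another. The difference between tissues was not tested, and tumour values are in the deposited scaling. In kidney under CMV-siRE 2 of 46 members lay wholly above the controls, below the share of all genes (8.27%). In thymus 6 did under CMV-siRE and 1 under CMV-GE11-siRE, and no share of all genes was counted. Nor was it counted for tumour above the controls or between the EGFR circuits. No kidney or thymus difference listed here was called in the main fit. For CMV-siRE minus CMV-scrR, Isg15 was at -1.05 in lung and -2.47 in spleen against 1.63 in kidney and 0.69 in thymus. Bst2 was at -0.81 in liver and -0.82 in spleen against 0.47 in thymus, and Daxx at -0.55 in spleen against 0.21 in thymus. Lgals9 was at -0.44 in lung, -0.23 in liver and -0.81 in spleen against 0.25 in thymus. Tor3a was at -0.51 in lung against 0.65 in thymus, and Shisa5 at -0.54 in lung and -0.53 in liver against 0.60 in kidney.

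For CMV-GE11-siRE minus CMV-scrR, Uba7 was at 1.14 in tumour against -0.64 in lung, -0.52 in liver and -0.67 in spleen, and Helz2 at 2.86 in tumour against -0.59 in lung and -0.48 in liver. Lgals9 was at -1.28 in tumour, -0.61 in lung and -0.66 in spleen against 0.41 in thymus. For CMV-GE11-siRE minus CMV-siRE, Isg15 was at -1.58 in tumour against 1.13 in spleen, and Cmpk2 at -0.78 in kidney against 0.60 in spleen.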

How the results depend on the processing

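Counts of called members moved more than the medians did, and the cause was not tested. The counts below stand without the share of all genes called under the same setting, so they describe the calls alone. Without a filter on low values the counts were 10 in liver under CMV-GE11-siRE, 9 in liver under CMV-siRE and 4 in lung under CMV-siRE. With only the 8 libraries compared they were 6 in liver under CMV-GE11-siRE, 4 in lung under CMV-siRE, 4 in spleen under CMV-GE11-siRE, 6 in kidney (5 higher) and 4 in thymus (3 higher) under CMV-siRE. A replicate block gave 9 in liver and 3 in spleen under CMV-GE11-siRE. No regular pairing by number was seen: in 0 of 18 comparisons did all 4 pairs correlate above 0.1, and in 0 did every library correlate best with its own number. Single pairs reached 0.27, and with 4 libraries per group this cannot show that the numbers carry no pairing. Chosen after seeing the data, removal of the GC trend gave 10 in liver and 7 in spleen under CMV-GE11-siRE. Omission of CMV-scrR replicates 1 and 3 together, also chosen then, gave 1 in liver under each circuit, 0 in lung and 8 in spleen under CMV-siRE, and 0 in spleen under CMV-GE11-siRE. Either other scaling gave 9 in liver under CMV-siRE. Leaving out 1 library at a time gave 1 to 20 in liver under CMV-siRE and 2 to 21 under CMV-GE11-siRE, 0 to 17 and 0 to 3 in lung, and 15 to 25 and 1 to 15 in spleen, with 0 to 1 between the circuits in spleen. In tumour it gave 0 to 2 under CMV-siRE (1 when CMV-scrR replicate 4 and 2 when CMV-siRE replicate 3 was omitted), 17 to 23 under CMV-GE11-siRE and 0 to 13 between the circuits (13 without CMV-siRE replicate 1). In tumour under CMV-GE11-siRE a common column total gave 29, all higher, with Trim30a at 0.12, Ifit3 at 0.20, Cmpk2 at 0.36, Ifit1 at 0.42, Ifit2 at 0.53 and Isg15 at 0.54. The mitochondrial share as a covariate gave 0 there, and omission of the 4 libraries with Ddx3y, chosen after seeing the data, gave 12. Between the circuits in tumour a column total gave 25, with Ifitm3 at 0.014 and Isg15 at 0.018, and the total without mitochondrial genes gave 2.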
